A study of Mus musculus with 24 samples.

Results

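Expression of 7 genes used as markers of sprouting endothelial tip cells was followed in regenerating mouse muscle. The genes were Esm1, Mcam, Plvap, Cxcr4, Ackr3, Unc5b and Robo4, taken by their symbol in the annotation of the array, out of 23279 genes with a name. All 7 passed the filter on low values, so each was among the 14064 genes tested.

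The tibialis anterior muscle of mice was injured with cardiotoxin, a snake venom toxin that destroys muscle fibres, which the stem cells of the muscle then rebuild. Cells were sorted by flow cytometry from muscle collected on day 2, day 4 and day 8 after the injury and on day 0, before it. Endothelial cells (EC) were the cells without CD45 that carried Sca1, CD34 and CD31, and satellite cells (SC), the stem cells of muscle, were the cells without CD45, Sca1 and CD31 that carried alpha7 integrin and positive or low CD34. RNA of each of the 8 groups was hybridised to 3 arrays of 1 colour, 24 in all, after amplification from less than a nanogram. Strain, sex and age are not given in the labels used here. The titles call the 3 samples of a group biological replicates without saying what was kept separate, so p-values measure the spread between these samples. Groups were taken from the titles, since the field for the cell type differed from the title in 12 samples and the field for the time point in 18.

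A growing vessel is led by a tip cell, which senses vascular endothelial growth factor (VEGF) with filopodia, breaks down matrix and does not form a lumen, while the stalk cells behind it divide and build the tube. Tip cells were defined by genes enriched at the front of growing vessels, above all in the mouse retina. They include a secreted proteoglycan (Esm1), surface proteins of the endothelium (Mcam and Plvap), receptors of the chemokine CXCL12 (Cxcr4 and Ackr3) and relatives of the receptors that steer axons (Unc5b and Robo4). In adult muscle most of the endothelium is quiescent capillary, and these genes are not restricted to tip cells: Robo4 and Plvap are also made by resting or fenestrated endothelium, Mcam by pericytes and smooth muscle, and Cxcr4 by leukocytes and satellite cells.

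Promoters are printed for Esm1, which rose in EC on day 2, Mcam, which stayed up through day 8, and Robo4, which was not called in EC, so that 3 unlike courses can be read beside the letters. Each runs from 250 bases before to 50 bases after the start of the gene, from RefSeq on GRCm38.p6, and 6 of the 7 members had an entry. Capitals mark matches, on either strand, to a GC box (GGGCGG), a form of the ETS family site (AGGAAG) or a TATA box (TATAAA). Shorter or other forms of these sites are not marked.
Esm1 promoter (chr13:113209409-113209708, plus strand): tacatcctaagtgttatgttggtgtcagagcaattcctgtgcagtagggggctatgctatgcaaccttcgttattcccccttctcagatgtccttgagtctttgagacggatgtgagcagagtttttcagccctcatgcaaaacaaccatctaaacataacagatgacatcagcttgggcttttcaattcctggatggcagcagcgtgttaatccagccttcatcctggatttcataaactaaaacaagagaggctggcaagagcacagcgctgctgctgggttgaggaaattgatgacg
Mcam promoter (chr9:44134408-44134707, plus strand): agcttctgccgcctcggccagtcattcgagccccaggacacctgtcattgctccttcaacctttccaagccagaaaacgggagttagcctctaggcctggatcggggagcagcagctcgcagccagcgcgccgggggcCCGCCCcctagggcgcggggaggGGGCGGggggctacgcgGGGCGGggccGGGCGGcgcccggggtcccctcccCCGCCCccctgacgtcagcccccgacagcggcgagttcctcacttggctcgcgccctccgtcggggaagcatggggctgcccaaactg
Robo4 promoter (chr9:37401722-37402021, plus strand): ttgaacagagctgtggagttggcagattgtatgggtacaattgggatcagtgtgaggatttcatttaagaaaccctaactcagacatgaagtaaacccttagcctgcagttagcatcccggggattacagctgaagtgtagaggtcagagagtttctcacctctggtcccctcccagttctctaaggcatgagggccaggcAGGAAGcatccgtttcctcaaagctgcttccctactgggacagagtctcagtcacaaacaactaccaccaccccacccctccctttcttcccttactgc

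None of the 300 bases of Esm1 was in capitals, against 5 GC boxes in Mcam and 1 match to AGGAAG in Robo4. Among 32851 promoters of the same length, 35.7% held a GC box, 35.4% AGGAAG and 13.6% the TATA box. Cxcr4 and Unc5b held 3 GC boxes each and Ackr3 held 1. The TATA box was matched 2 times in Cxcr4, by overlapping letters on opposite strands, and 1 time in Ackr3. None of the 6 promoters held ACGTG, a form of the hypoxia core (in 19.6% of all promoters). Nor did any hold the RBPJ site as GTGGGAA (6.38%) or the AP-1 site as TGANTCA (7.81%). Only these exact letters were searched, so other forms of the sites were not counted. Base composition split the members, with 72.7% G or C and 29 CpG in Mcam, 69.7% and 36 in Unc5b, and 59.3% and 20 in Cxcr4. Ackr3 had 54.0% and 8 CpG, Robo4 50.3% and 2, and Esm1 46.3% and 5. A match describes the letters in this window and was not tested for binding.

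Values are log2 intensities as the authors normalised them, on which the array medians lay between 4.115 and 4.401, and a level is read within a gene, not between genes. A gene was called higher or lower when limma's moderated test gave an adjusted p under 0.05 over all genes tested and the log2 difference was at least 1. Defining markers were read against the labels. Pecam1, which encodes CD31, averaged 11.39 to 11.56 in the EC groups and 7.71 to 9.55 in the SC groups, and Pax7, the defining factor of satellite cells, averaged 4.56 to 5.23 in the EC groups. In the SC groups, Pax7 averaged 9.28 on day 0, 8.46 on day 4 and 8.13 on day 8, but 5.17 on day 2, while Tyrobp, a leukocyte adaptor, averaged 11.11 there. The mean over 19 leukocyte markers was 10.01 ± 0.89 in SC of day 2, against 3.93 ± 0.29 in SC of day 0 (SD, n = 3 each). Replicate 2 of the SC group of day 2 stood apart from replicates 1 and 3, with a mean over 15 endothelial core markers of 8.83, against 6.87 and 7.11, and over 14 pericyte and smooth muscle markers of 7.96, against 6.39 and 6.56. It also had the lowest leukocyte mean of the group, 8.98, against 10.58 and 10.47. The mean over 12 satellite cell and myoblast genes was 5.23 on replicate 2, against 5.22 and 4.95. Calls and counts that rest on the SC group of day 2 are therefore given with and without replicate 2. Values without it rest on replicates 1 and 3, where the leukocyte means were higher.

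**Figure D1:**
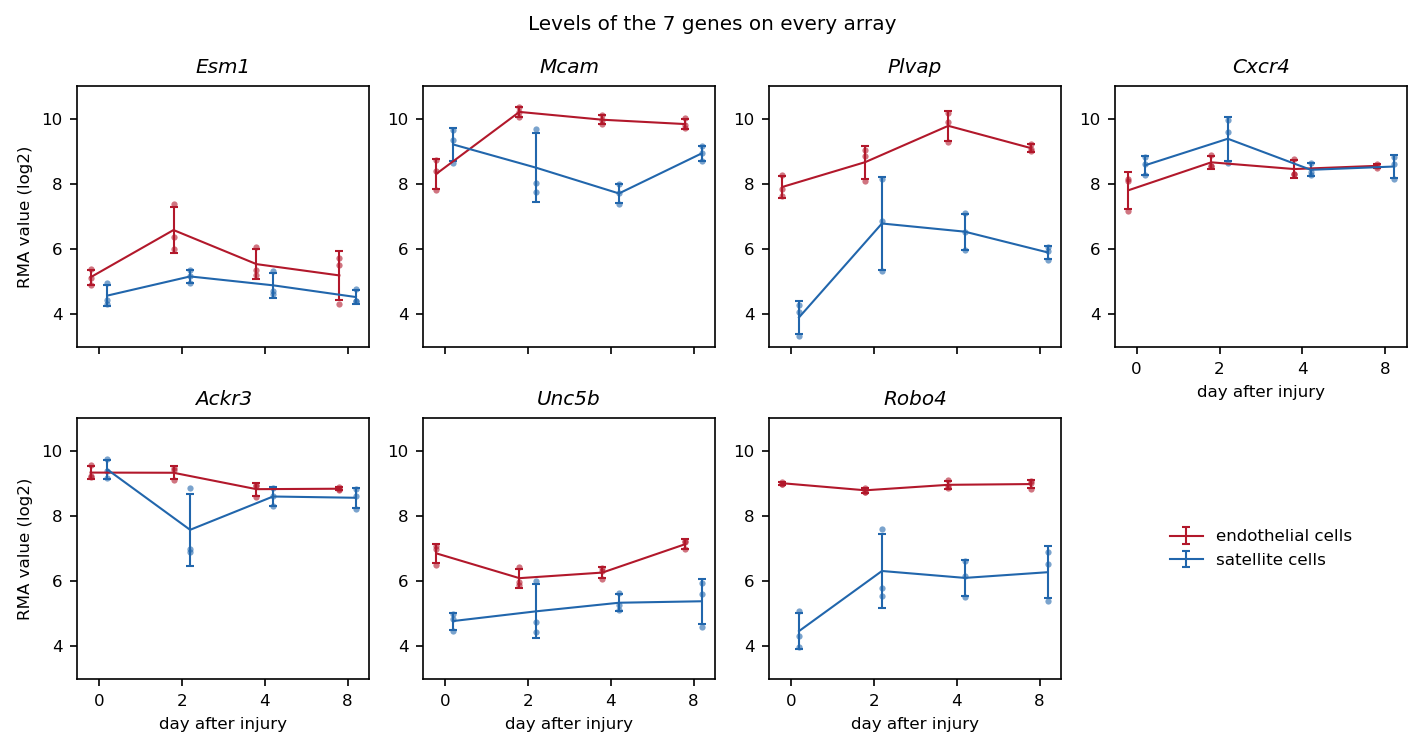
Log2 expression of the 7 genes (vertical axes) by day after injury (horizontal axes, days evenly spaced), with 1 point per array, EC left of SC at each day and lines through the means of 3 arrays. Mcam is near 10 in EC on days 2, 4 and 8, Esm1 peaks in EC on day 2, Plvap in EC on day 4, and Robo4 is near 9 in EC on every day.

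In EC, the members did not move as a group after injury. Mcam rose and stayed up on all 3 days, Esm1 rose on day 2 alone of the 3 days tested, Plvap rose on day 4, and Cxcr4, Ackr3, Unc5b and Robo4 were not called on any day. Against day 0, 2 of the 7 members were called higher and 0 lower on day 2, when 3.73% of all genes tested were called higher and 3.01% lower. On day 4 the counts were 2 higher and 0 lower, with a background of 3.11% and 2.22%, and on day 8 they were 1 higher and 0 lower, with a background of 1.11% and 0.946%. The median log2 difference over the 7 members was 0.76 on day 2, 0.40 on day 4 and 0.28 on day 8. Over all genes tested it was -0.0109, -0.0182 and -0.00234. The 3 comparisons share the arrays of day 0. In RNA of sorted populations, a change in the number of cells that make a transcript and a change in the amount per cell cannot be told apart.

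Esm1 encodes endocan, a proteoglycan secreted by activated endothelium and among the strongest tip cell markers of the mouse retina. In EC its levels were 5.11, 4.92 and 5.39 on day 0, 6.00, 6.38 and 7.38 on day 2, 5.35, 6.06 and 5.22 on day 4, and 5.53, 4.33 and 5.73 on day 8. All 3 arrays of day 2 lay above all arrays of day 0, and the arrays of days 4 and 8 overlapped those of day 0. Esm1 averaged 6.59 ± 0.72 on day 2 and 5.14 ± 0.24 on day 0 (SD, n = 3 each), a log2 difference of 1.45 (SE 0.36, adjusted p = 0.0132, limma). The mean of day 0 was 0.96 above the array medians, so no fold is given. The call was lost without replicate 2 of day 0 (1.34, adjusted p = 0.0559) and without replicate 3 of day 2 (1.05, adjusted p = 0.0851). On day 4 the difference from day 0 was 0.40 (95% CI -0.34 to 1.14) and on day 8 it was 0.06 (-0.69 to 0.80). Between day 4 and day 2 Esm1 differed by -1.04 (SE 0.36), which was not called (adjusted p = 0.252), and 0 of the 7 members were called by limma there or between day 8 and day 4 (2 and 1 at an unadjusted p under 0.05). Of all genes tested, 0.370% were called in either direction between days 4 and 2 and 0.121% between days 8 and 4.

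Mcam encodes CD146, an adhesion molecule of endothelial junctions, pericytes and smooth muscle and a coreceptor of VEGFR2. In EC its levels were 8.73, 8.38 and 7.82 on day 0, then 10.22, 10.34 and 10.06 on day 2, 9.97, 10.10 and 9.83 on day 4, and 10.00, 9.70 and 9.79 on day 8. Every array after injury lay above every array of day 0. Mcam averaged 10.21 ± 0.14 on day 2 and 8.31 ± 0.46 on day 0, a 3.72-fold rise (log2 difference 1.89, SE 0.36, adjusted p = 0.00222). The rise was 3.15-fold on day 4 (1.65, SE 0.36, adjusted p = 0.00652) and 2.87-fold on day 8 (1.52, SE 0.36, adjusted p = 0.0273). The calls of days 2 and 4 held with each array left out, and that of day 8 was lost on leaving out replicate 2 or 3 of day 0 or any array of day 8, with log2 differences of 1.28 to 1.59 and adjusted p of 0.0696 to 0.134.

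Mcam is also a pericyte gene, and 7 of 14 pericyte and smooth muscle markers were called lower in EC on day 2, 6 on day 4 and 5 on day 8, with none higher. Of all genes tested, 3.01%, 2.22% and 0.946% were called lower on these days. The mean over these markers was 8.00, 7.47 and 7.10 on replicates 1, 2 and 3 of EC day 0, the same order as Mcam there. It was 5.48 to 6.67 in EC on day 2, 5.39 to 6.44 on day 4 and 5.88 to 6.17 on day 8. After injury, then, Mcam was higher while these markers were lower, and their part in the Mcam values was not tested. Pdgfrb, a defining pericyte receptor, averaged 6.17 in EC on day 2 and 8.31 on day 0.

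Plvap encodes the protein that forms the diaphragms of fenestrae and caveolae. In EC its levels were 7.62, 8.27 and 7.83 on day 0, 8.09, 9.04 and 8.87 on day 2, 9.28, 9.88 and 10.18 on day 4, and 9.00, 9.06 and 9.22 on day 8. Arrays of day 2 overlapped those of day 0, and those of days 4 and 8 lay above them. Plvap averaged 9.78 ± 0.46 on day 4 and 7.91 ± 0.33 on day 0, a 3.66-fold rise (log2 difference 1.87, SE 0.47, adjusted p = 0.0177). The call of day 4 was lost without replicate 1 or 3 of day 0 or replicate 2 or 3 of day 4, with log2 differences of 1.67 to 1.83 and adjusted p of 0.055 to 0.0774. The differences of 0.76 on day 2 (95% CI -0.22 to 1.74) and 1.19 on day 8 (0.21 to 2.17, adjusted p = 0.235) were not called, although that of day 8 passed when only the arrays of those 2 groups were fitted (adjusted p = 0.0389).

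**Figure D2:**
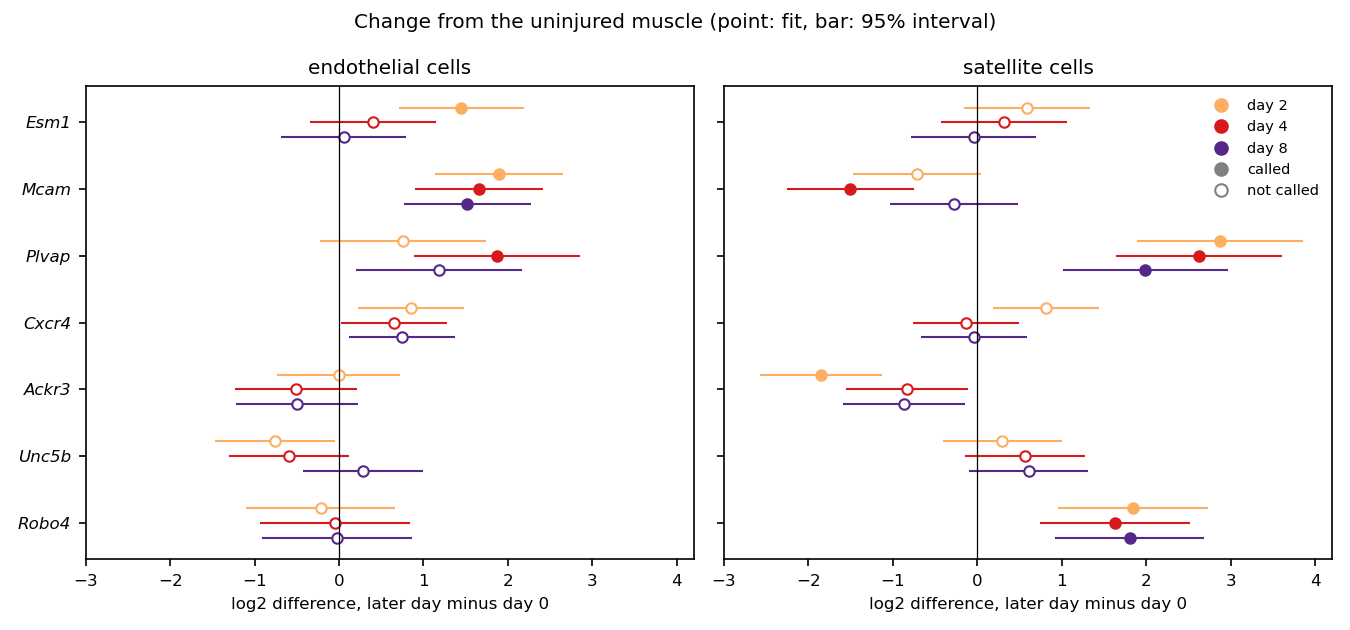
Log2 difference from day 0 of the same cell type (horizontal axes) for each gene (rows) on days 2, 4 and 8, in EC (left) and SC (right), with bars of 95% confidence intervals and filled points for calls. The EC panel has 5 calls, all above 0 and all in Esm1, Mcam or Plvap, while Plvap and Robo4 are called higher in SC on every day.

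Cxcr4, the receptor through which CXCL12 guides migrating cells, was not called in EC on any day. Its levels were 8.16, 8.09 and 7.16 on day 0, 8.54, 8.55 and 8.90 on day 2, 8.77, 8.31 and 8.29 on day 4, and 8.61, 8.50 and 8.56 on day 8. Every array after injury lay above every array of day 0, where replicate 3 was low. The log2 differences were 0.86 on day 2 (95% CI 0.23 to 1.48, adjusted p = 0.0817), 0.65 on day 4 (0.02 to 1.28) and 0.75 on day 8 (0.12 to 1.38).

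Ackr3, formerly CXCR7, takes up CXCL12 without signalling through G proteins. Its levels in EC were 9.20, 9.23 and 9.55 on day 0, 9.09, 9.40 and 9.47 on day 2, 8.59, 8.92 and 8.95 on day 4, and 8.78, 8.83 and 8.89 on day 8. The arrays of days 4 and 8 lay below those of day 0, and those of day 2 overlapped them. None of the differences was called, with -0.01 on day 2 (95% CI -0.73 to 0.72), -0.51 on day 4 (-1.23 to 0.22) and -0.49 on day 8 (-1.22 to 0.23). Their ligand Cxcl12 averaged 10.69 ± 0.34 in EC on day 0, 10.76 ± 0.34 on day 2, 10.17 ± 0.16 on day 4 and 10.09 ± 0.14 on day 8. It was not called either.

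Unc5b, a netrin receptor that restrains sprouting in the mouse, had levels in EC of 6.98, 7.06 and 6.51 on day 0, 6.43, 5.96 and 5.88 on day 2, 6.30, 6.41 and 6.08 on day 4, and 7.19, 6.97 and 7.24 on day 8. It was lower on all arrays of days 2 and 4 than on those of day 0, and those of day 8 overlapped day 0. None of the differences was called (-0.76, 95% CI -1.47 to -0.05, on day 2, and -0.59, -1.30 to 0.12, on day 4, and 0.28, -0.43 to 0.99, on day 8).

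Robo4, an endothelial receptor that stabilises vessels and binds UNC5B, had the smallest range of EC group means among the 7 members. Its levels were 8.97, 8.99 and 9.05 on day 0, 8.74, 8.74 and 8.87 on day 2, 8.90, 8.87 and 9.09 on day 4, and 9.07, 8.84 and 9.02 on day 8. All arrays of day 2 lay below those of day 0, and those of days 4 and 8 overlapped them. The 4 EC group means spanned 0.22, against 0.51 for Ackr3 and 1.89 for Mcam. The difference from day 0 was -0.22 on day 2 (95% CI -1.10 to 0.67), and the limma error here is pooled over all 8 groups, of which the SC groups spread more.

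Of the ligands and partner receptors of the members, 18 were tested in EC. The share of all genes tested that was called higher was 3.73% on day 2, 3.11% on day 4 and 1.11% on day 8. The share called lower was 3.01%, 2.22% and 0.946%. Lgals1, a galectin that binds CD146, was called higher on day 2 (1.92), day 4 (2.07) and day 8 (1.24). Flrt2, a ligand of UNC5 receptors, was called higher on day 4 (1.74, SE 0.42, adjusted p = 0.0133), and Ramp3, a partner of calcitonin-family receptors, was lower on day 2 (-1.27). Flrt2 levels in EC were 5.33, 5.78 and 5.62 on day 0, 5.86, 6.54 and 6.75 on day 2, 7.30, 6.99 and 7.67 on day 4, and 7.40, 7.05 and 6.89 on day 8. Slit2 was at or below the array median on all 24 arrays, and Slit3, Ntn1, Ntn4 and Flrt3 were not called in EC.

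Among 24 other tip cell genes tested, 7 were called higher and 2 lower in EC on day 2, 6 higher and 1 lower on day 4, and 5 higher and 0 lower on day 8, with median log2 differences of 0.47, 0.59 and 0.43. On day 2 the largest were Pgf (4.96), a VEGF family ligand, Apln (4.30), the ligand of the apelin receptor, Mmp14 (3.46), a membrane-bound matrix protease, and Plaur (2.55), the urokinase receptor. Apln was called higher on day 4 (2.18) and day 8 (1.74), Mmp14 on day 4 (3.23) and day 8 (2.56), and Pgf on day 4 (3.22). The basement membrane gene Nid2 was higher by 2.01 on day 4 and 2.02 on day 8. The VEGF receptor gene Kdr (-1.15) and the coreceptor gene Nrp1 (-1.06) were called lower on day 2, and the Notch ligand Dll4 was lower on day 4 (-1.73). Flt4, which encodes VEGF receptor 3, differed by -0.33 on day 2 and was not called. Of 12 stalk and phalanx genes, Flt1 was called lower on day 2 (-1.21) and day 4 (-1.20) and none higher. The background in EC, for these lists and those below, was 3.73% higher and 3.01% lower on day 2. It was 3.11% and 2.22% on day 4, and 1.11% and 0.946% on day 8. The lists, like the members, were chosen with earlier results of these data known.

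**Figure D3:**
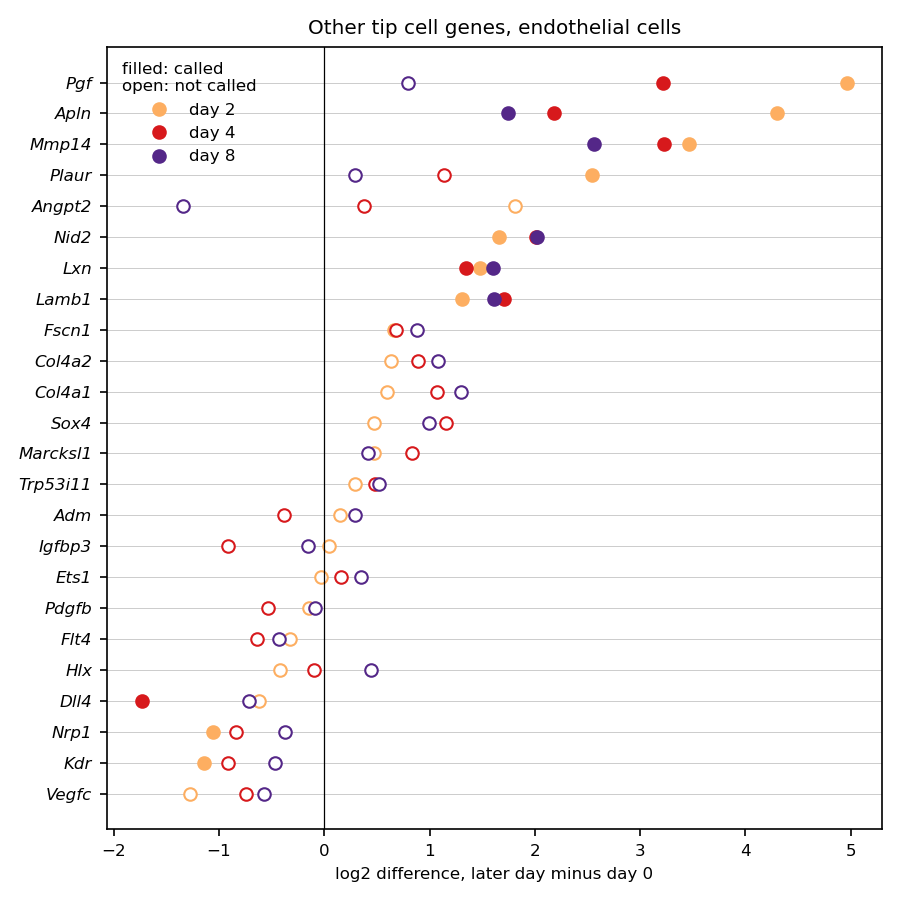
Log2 difference in EC from day 0 (horizontal axis) for the 24 other tip cell genes (rows, ordered by day 2) on days 2, 4 and 8, shown by colour, with filled points for calls. Pgf, Apln and Mmp14 lie at 3.46 or above on day 2, and Dll4, Nrp1 and Kdr are the genes called lower on some day.

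Other endothelial groups gave the setting. None of the 15 endothelial core genes was called by limma in EC on any day (0 at an unadjusted p under 0.05), and neither was any of 4 lymphatic genes (0, 1 and 0 on days 2, 4 and 8 at that p). Of 8 capillary genes, 4 were lower on day 2 (Car4 -2.31, Rgcc -1.69, Tcf15 -1.67 and Aqp1 -1.65), 3 on day 4 and 1 on day 8. Of 7 venous genes, 1 was higher on day 2, 4 on day 4 and 0 on day 8. Those of day 4 were Selp (2.83), Ackr1 (2.75), Lrg1 (2.37) and Vcam1 (1.78). The others in the list, Nr2f2, Ephb4 and Vwf, were not called higher on day 4. Plvap had its highest EC level on day 4 as well, and the mean over the venous markers was 7.20 ± 0.18 on day 0, 7.35 ± 0.41 on day 2, 8.80 ± 0.30 on day 4 and 7.67 ± 0.33 on day 8. Of 14 genes of dividing cells, 12, 13 and 8 were called higher on days 2, 4 and 8.

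Leukocyte markers were called higher in EC on the days when Esm1, Mcam and Plvap were, although the gate left out CD45. Of 19, 12 were higher on day 2, 13 on day 4 and 3 on day 8. Their mean level was 3.96 to 4.00 on day 0, 5.84 to 8.24 on day 2, 5.84 to 7.95 on day 4 and 4.60 to 5.40 on day 8. Ptprc, which encodes CD45, averaged 4.90 in EC on day 2, and Tyrobp averaged 8.65 there. On day 2 the leukocyte mean was 8.24, 5.84 and 6.81 on replicates 1, 2 and 3, and Esm1 was lowest on replicate 1 and highest on replicate 3. Mcam lay between 10.06 and 10.34 on the same 3 arrays. The part of leukocyte RNA in the members' changes was not tested.

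Markers of fibro-adipogenic progenitors, the connective tissue cells of muscle, were also higher in EC on the later days. Of 10 tested, 0 were called on day 2 (1 at an unadjusted p under 0.05), 2 were higher on day 4 (Col1a2 1.61 and Col3a1 1.33) and 3 on day 8 (Lum 1.95, Col3a1 1.64 and Col1a1 1.64), with 0 lower on any of the days. Their mean level was 4.35 to 4.73 on day 0, 4.09 to 4.64 on day 2, 4.93 to 5.45 on day 4 and 5.16 to 5.57 on day 8. Pdgfra, which defines these cells, lay below the array median on every EC array. The part of these cells in the values of Mcam and Plvap was not tested.

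**Figure D4:**
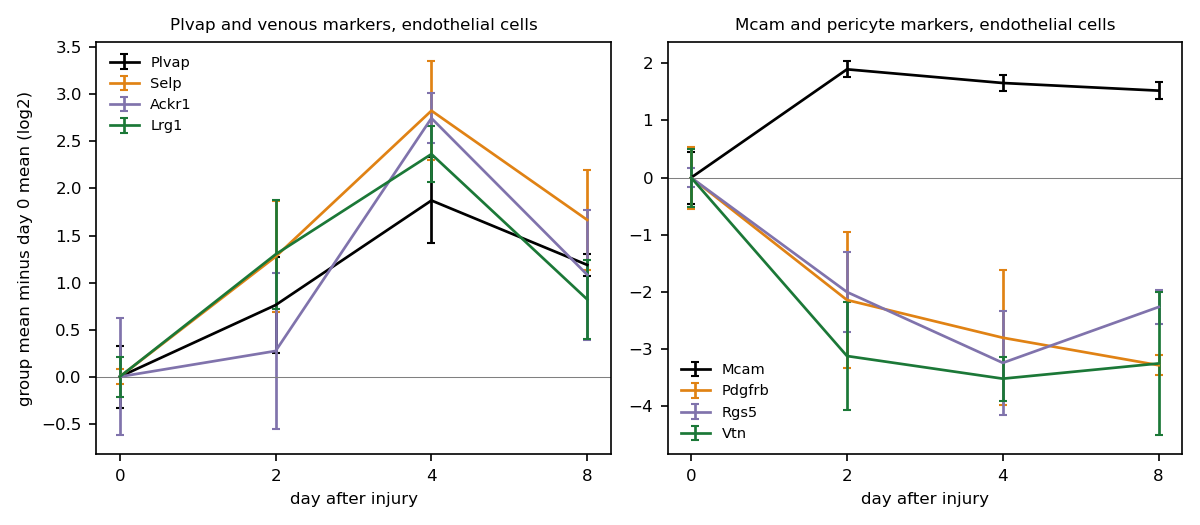
Difference of the EC group mean from day 0 (vertical axes, log2) by day (horizontal axes, days evenly spaced), with bars of 1 SD over 3 arrays. Plvap is drawn with 3 of the venous genes called higher on day 4 (left), and Mcam with 3 pericyte genes (right). Plvap, Selp, Ackr1 and Lrg1 peak on day 4, at 1.87, 2.83, 2.75 and 2.37, while Mcam lies above 0 and Pdgfrb, Rgs5 and Vtn below it on every day after injury.

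In SC, Plvap and Robo4 rose on every day after injury, Ackr3 fell on day 2 and Mcam on day 4. On day 2, 2 of the 7 members were called higher (Plvap and Robo4) and 1 lower (Ackr3), when 10.9% of all genes tested were called higher and 9.67% lower. The counts were 3 higher and 2 lower without replicate 2 of day 2, with a background of 12.5% and 10.7%. On day 4, Plvap and Robo4 were higher and Mcam lower, so 2 and 1 of 7, with a background of 6.53% and 5.47%. On day 8, Plvap and Robo4 were higher and 0 lower, with a background of 4.38% and 2.00%. The median over the 7 members was 0.59, 0.32 and -0.04 on the 3 days, and over all genes tested it was -0.0285, 0.0140 and -0.00644.

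In SC, Plvap levels were 4.30, 4.08 and 3.34 on day 0, below the array median on all 3 arrays, then 5.34, 8.16 and 6.87 on day 2, 7.09, 5.98 and 6.53 on day 4, and 5.95, 5.68 and 6.07 on day 8. Every array after injury lay above those of day 0, and replicate 2 of day 2 was the highest. The log2 difference from day 0 was 2.88 on day 2 (SE 0.47, adjusted p = 8.2e-05), 2.63 on day 4 (adjusted p = 0.000463) and 1.99 on day 8 (adjusted p = 0.00889). Without replicate 2 of day 2, Plvap was higher by 2.19 on day 2 (adjusted p = 0.000345). The call of day 8 was lost without replicate 3 of day 0 (1.71, adjusted p = 0.0532).

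Robo4 levels in SC were 3.99, 4.33 and 5.09 on day 0, 5.55, 7.60 and 5.79 on day 2, 6.63, 5.53 and 6.15 on day 4, and 5.39, 6.54 and 6.90 on day 8. Here too every array after injury lay above those of day 0. The log2 difference was 1.84 on day 2 (SE 0.43, adjusted p = 0.00229), 1.63 on day 4 (adjusted p = 0.0101) and 1.81 on day 8 (adjusted p = 0.00858). Without replicate 2 of day 2 it was 1.20 on day 2 (adjusted p = 0.0157). Fitted on the arrays of the 2 groups alone, Robo4 was not called on day 2 (adjusted p = 0.0561) or day 8 (adjusted p = 0.0582). The call of day 4 was lost without replicate 1 of day 0 (1.39, adjusted p = 0.0555) or of day 4 (1.37, adjusted p = 0.0567), and that of day 8 without replicate 3 of day 8 (1.49, adjusted p = 0.0622).

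Endothelial core genes were also higher in SC after injury. Of 15 tested, 9 were called higher on day 2, 5 on day 4 and 8 on day 8, with 0 lower. Of all genes tested, 10.9%, 6.53% and 4.38% were called higher on these days. The day 2 counts were 5 higher and 1 lower without replicate 2. Their mean level was 6.16 to 6.52 on day 0, 6.87 to 8.83 on day 2, 6.98 to 7.76 on day 4 and 7.05 to 8.09 on day 8. Pecam1 averaged 9.53 ± 1.10 in SC on day 2 and 7.71 ± 0.51 on day 0, and Cdh5, the cadherin of endothelial junctions, 9.87 ± 1.00 and 8.05 ± 0.16, although the gate left out CD31. Replicate 2 of day 2 was highest for Plvap, Robo4 and these markers alike. On day 4, replicate 1 was highest for the core mean (7.76), Plvap (7.09) and Robo4 (6.63). On day 8, replicate 2 had the highest core mean of its group (8.09) and the lowest Plvap (5.68), while Robo4 was highest on replicate 3 (6.90). The core mean was 7.60, 7.25 and 7.67 on days 2, 4 and 8. Plvap averaged 6.79, 6.54 and 5.90 on these days, and Robo4 6.31, 6.10 and 6.28. The part of endothelial RNA in the rise of Plvap and Robo4 in SC was not tested.

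Ackr3 differed by -0.10 between EC and SC on day 0 (95% CI -0.82 to 0.63). Its SC levels were 9.17, 9.38 and 9.73 on day 0, 6.89, 8.85 and 6.98 on day 2, 8.86, 8.62 and 8.30 on day 4, and 8.62, 8.82 and 8.22 on day 8. All arrays after injury lay below those of day 0, with replicates 1 and 3 of day 2 the lowest. On day 2 it was 3.61-fold lower (log2 difference -1.85, SE 0.35, adjusted p = 0.00035), and without replicate 2 of that day the difference was -2.49. The leukocyte mean on the arrays of SC day 2 was 10.58, 8.98 and 10.47, highest where Ackr3 was lowest. The pericyte and smooth muscle mean was 6.39, 7.96 and 6.56 and the endothelial core mean 6.87, 8.83 and 7.11, both in the order of Ackr3. These 3 arrays cannot tell the lists apart, and their part in the Ackr3 values was not tested. The differences on day 4 (-0.83, 95% CI -1.56 to -0.11) and day 8 (-0.87, -1.60 to -0.15) were not called (adjusted p = 0.112 and 0.134).

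Mcam levels in SC were 8.64, 9.36 and 9.64 on day 0, 8.04, 9.70 and 7.75 on day 2, 8.00, 7.40 and 7.73 on day 4, and 8.70, 9.16 and 8.96 on day 8. The arrays of day 4 lay below those of day 0, and those of days 2 and 8 overlapped them. Mcam was 2.83-fold lower on day 4 (log2 difference -1.50, SE 0.36, adjusted p = 0.00592). On day 2 the difference was -0.71 (adjusted p = 0.159), but -1.31 without replicate 2 (adjusted p = 0.00131), which would be a call.

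Pericyte and smooth muscle markers, like Mcam and Ackr3, had lower means in SC after injury, but the courses differed. Of 14, 14 were lower on day 2, 12 on day 4 and 3 on day 8, against 9.67%, 5.47% and 2.00% of all genes tested. Their mean level was 9.38 to 10.17 on day 0, 6.39 to 7.96 on day 2, 6.71 to 7.03 on day 4 and 8.24 to 9.18 on day 8. Over days 0, 2, 4 and 8 these markers averaged 9.90, 6.97, 6.92 and 8.72. Ackr3 averaged 9.43, 7.57, 8.59 and 8.56 on the same days, and Mcam 9.21, 8.50, 7.71 and 8.94. Rgs5, a defining pericyte gene, averaged 11.82 in SC on day 0, and Pdgfrb 10.37. Of 12 satellite cell and myoblast genes, 10 were lower on day 2 and 2 each on days 4 and 8. On day 2, 14 of the 14 pericyte and smooth muscle markers and 9 of the 12 satellite cell genes were lower without replicate 2. What share of Mcam and Ackr3 RNA in SC came from other cells was not tested.

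**Figure D5:**
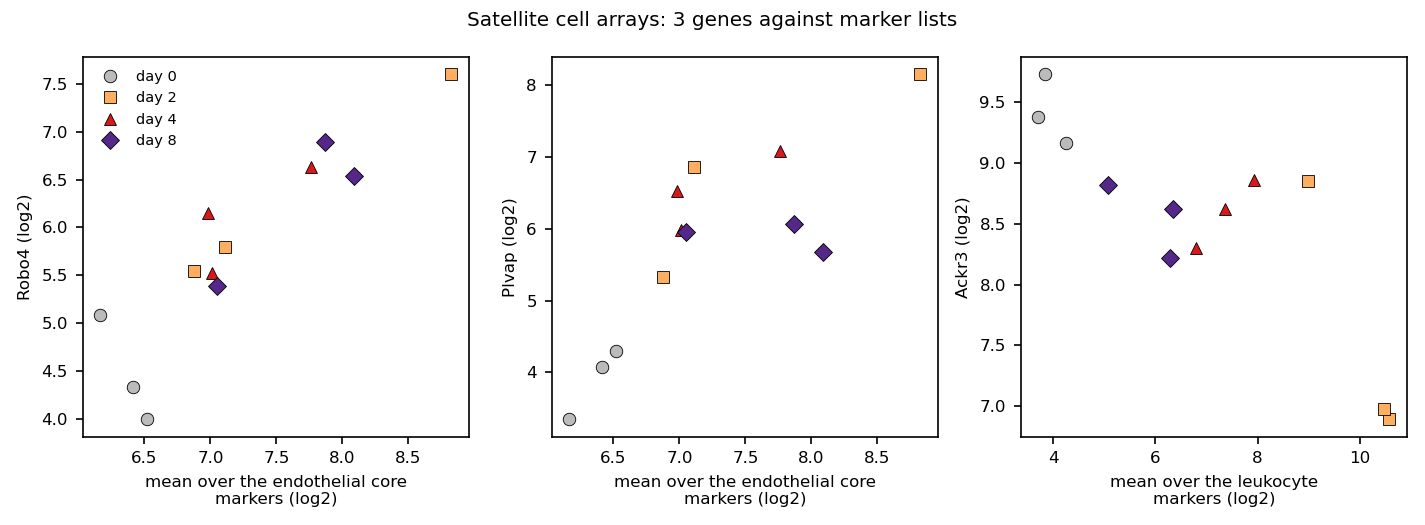
Robo4, Plvap and Ackr3 on the 12 SC arrays (vertical axes, log2) against the mean log2 level over a marker list on the same array (horizontal axes), endothelial core for Robo4 and Plvap and leukocyte for Ackr3, with 1 point per array and the day shown by colour and shape. Robo4 and Plvap are highest on the array with the highest endothelial core mean, 8.83, which is replicate 2 of day 2, while on day 0 the arrays of Robo4 run the other way.

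Cxcr4 was the only member with a lower mean in EC than in SC on day 2, without a call. Its SC levels were 8.82, 8.62 and 8.26 on day 0, 9.94, 8.63 and 9.58 on day 2, 8.65, 8.27 and 8.38 on day 4, and 8.83, 8.15 and 8.61 on day 8. Replicates 1 and 3 of day 2 lay above the other 10 arrays. The difference from day 0 on day 2 was 0.82 (SE 0.30, adjusted p = 0.0475), under the minimum of 1, and 1.19 without replicate 2 (adjusted p = 0.00302). The leukocyte mean over the 3 arrays of day 2 had the same order as Cxcr4, with replicate 1 highest and replicate 2 lowest. The endothelial core mean and the pericyte and smooth muscle mean had the reverse order. The part of these cells in the Cxcr4 values was not tested.

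Cxcl12, its ligand, was lower in SC on day 2 (log2 difference -1.93, SE 0.39, adjusted p = 0.000704), with a difference of -2.46 without replicate 2. It averaged 10.44 ± 0.53 on day 0, 8.51 ± 0.92 on day 2, 8.62 ± 0.36 on day 4 and 9.19 ± 0.76 on day 8. Of the ligands of the guidance receptors, Ntn4 (-3.74), Slit3 (-2.42), Ntn1 (-1.48) and Flrt2 (-1.44) were also called lower in SC on day 2. Without replicate 2 they stood at -4.31, -2.83, -1.57 and -1.17, the last of these no longer called (adjusted p = 0.0639), and Flrt3 was called higher (1.52). Of 18 ligands and partners tested, 0 were higher and 7 lower in SC on day 2, against 1 and 7 without replicate 2. The background was 10.9% higher and 9.67% lower, and 12.5% and 10.7% without replicate 2.

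Unc5b and Esm1 were low in SC and were not called there. Unc5b averaged 4.78 ± 0.26 on day 0, 5.08 ± 0.83 on day 2, 5.34 ± 0.27 on day 4 and 5.38 ± 0.69 on day 8. Esm1 averaged 4.58 ± 0.33, 5.16 ± 0.20, 4.89 ± 0.39 and 4.53 ± 0.23 on the same days. The differences of day 2 without replicate 2 were -0.17 for Unc5b and 0.49 for Esm1, again not called.

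Between the cell types, Plvap and Robo4 were higher in EC on every day, and Mcam was called higher in EC on days 2 and 4 and Ackr3 on day 2. On day 0, 3 of the 7 members were called higher in EC than in SC (Unc5b, Plvap and Robo4) and 0 lower, when 9.43% of all genes tested were higher and 7.59% lower. On day 2 it was 6 of 7, all but Cxcr4, with a background of 6.31% higher and 5.82% lower. That count was 1, Robo4 alone, when only the arrays of day 2 were fitted (adjusted p of 0.0652 to 0.195 for the other 5), and 4 to 6 with 1 array left out. Without replicate 2 of SC day 2, 6 were higher and Cxcr4 was lower, with a background of 7.40% and 7.57%. On day 4 it was 3 (Plvap, Mcam and Robo4), with a background of 7.73% and 5.20%, and on day 8 again 3 (Unc5b, Plvap and Robo4), with a background of 6.88% and 7.05%. The median over the 7 members was 0.56, 1.71, 0.92 and 0.90 on days 0, 2, 4 and 8. In the SC sort of day 2, satellite cell and myoblast genes averaged 5.13, against 7.95 on day 0. Leukocyte markers averaged 10.01 there, against 3.93. The part of other cells in the differences of day 2 was not tested.

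Robo4 was higher in EC by 4.53, 2.47, 2.85 and 2.70 on the log2 scale on days 0, 2, 4 and 8, and Plvap by 4.00, 1.88, 3.24 and 3.19, all called. On day 2 the EC and SC arrays of Plvap overlapped, and its call was lost without replicate 1 of SC day 2 (1.16, adjusted p = 0.0708). The differences of day 2 were 3.12 for Robo4 and 2.57 for Plvap without replicate 2 of SC day 2. Unc5b was higher in EC than in SC by 2.07 on the log2 scale on day 0 (adjusted p = 8.67e-05) and by 1.75 on day 8. Its SC mean of day 0 lay 0.43 above the array medians, so no fold is given. Its difference on day 2 was 1.02 (adjusted p = 0.0486), a call lost under 26 of 36 alternatives, and 1.49 without replicate 2 of SC day 2 (adjusted p = 0.00133). On day 4 it was 0.92 (adjusted p = 0.0687).

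Mcam averaged 8.31 ± 0.46 in EC and 9.21 ± 0.52 in SC on day 0, a difference of -0.90 (SE 0.36) that was not called (adjusted p = 0.0851). It was 3.27-fold higher in EC on day 2 (1.71, adjusted p = 0.0023) and 4.79-fold higher on day 4 (2.26, adjusted p = 0.000114), and the 0.90 of day 8 was not called (adjusted p = 0.0966). Ackr3 averaged 9.33 ± 0.19 in EC and 9.43 ± 0.29 in SC on day 0, and 9.32 ± 0.20 in EC and 7.57 ± 1.11 in SC on day 2, when it was 3.36-fold higher in EC (1.75, adjusted p = 0.00136). Without replicate 2 of SC day 2 the day 2 differences were 2.31 for Mcam and 2.39 for Ackr3, and with only the arrays of day 2 fitted neither was called (adjusted p = 0.0818 and 0.0888). Esm1 was higher in EC by 1.42 on day 2 (adjusted p = 0.00808), a call lost without replicate 3 of EC day 2 (1.02, adjusted p = 0.076) and kept without replicate 2 of SC day 2 (1.52). Its differences of 0.56, 0.65 and 0.66 on days 0, 4 and 8 were not called. Cxcr4 differed by -0.76, -0.72, 0.02 and 0.02 on the 4 days, with no call, although without replicate 2 of SC day 2 it was lower in EC on day 2 (-1.10, adjusted p = 0.00846).

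The change from day 0 was itself compared between EC and SC. On day 2, 2 of the 7 members had a higher change in EC (Mcam and Ackr3) and 2 a lower one (Plvap and Robo4), when 5.03% of all genes tested had a higher and 6.44% a lower one. Mcam differed by 2.61 (SE 0.51, adjusted p = 0.00212) and Ackr3 by 1.85 (SE 0.49, adjusted p = 0.0174). Plvap differed by -2.12 (SE 0.67, adjusted p = 0.0424) and Robo4 by -2.06 (SE 0.60, adjusted p = 0.0294), and without replicate 2 of SC day 2 neither was called (-1.43, adjusted p = 0.0874, and -1.41, adjusted p = 0.0506). Without it Mcam differed by 3.21 and Ackr3 by 2.49. The calls of Plvap, Robo4 and Ackr3 were lost under 16, 9 and 3 of 35 alternatives, and that of Mcam under none of them. On day 4 it was Mcam alone, 1 of 7 higher and 0 lower (3.16, SE 0.51, adjusted p = 0.000817), with a background of 2.24% and 2.00%. On day 8 limma called 0 of 7 in either direction (2 at an unadjusted p under 0.05), with a background of 0.811% and 1.39%, Mcam differing by 1.79 (SE 0.51, adjusted p = 0.0743).

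Ordered by mean, the 8 groups formed a different series for each member, and most neighbours overlapped. For Robo4 the EC groups of days 0, 8, 4 and 2 (9.00, 8.98, 8.95 and 8.78) overlapped each in turn, and a gap without overlap lay before SC of day 2 (6.31), SC of day 8 (6.28) and SC of day 4 (6.10) and another before SC of day 0 (4.47). For Plvap, EC of day 4 (9.78) stood clear of EC of day 8 (9.09), and SC of day 0 (3.91) stood clear of the rest. For Mcam, EC of days 2, 4 and 8 (10.21, 9.97 and 9.83) stood clear of SC of day 0 (9.21), with EC of day 0 (8.31) between SC of day 2 (8.50) and SC of day 4 (7.71). For Unc5b, EC of days 8 and 0 (7.13 and 6.85) stood clear of EC of days 4 and 2 (6.26 and 6.09), which overlapped the SC groups after them in turn. For Ackr3, SC of day 0 (9.43), EC of day 0 (9.33) and EC of day 2 (9.32) stood clear of EC of day 8 (8.83), and SC of day 2 (7.57) was last. For Cxcr4, SC of day 2 (9.38) was first and EC of day 0 (7.80) stood clear below SC of day 4 (8.43). For Esm1, EC of day 2 (6.59) was first and every neighbour overlapped.

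Likeness of pattern was measured as the root mean square difference between the 8 group means of 2 genes, each centred on its own mean, over all genes tested. The nearest to Robo4 were Bcl6b (0.15), S1pr1 (0.16) and Sox18 (0.19), of which S1pr1 is a receptor of sphingosine 1-phosphate and Sox18 an endothelial transcription factor. The nearest to Plvap were Selp (0.45), the P-selectin gene, B3gnt3 (0.50) and Meox1 (0.51), and to Mcam Vwa1 (0.31), Pcdhb18 (0.40) and Endod1 (0.42). The nearest to Esm1 were Galnt1 (0.20), Cptp (0.20) and Anxa7 (0.22), and to Unc5b Nck1 (0.17), Fam124b (0.18) and Rgs12 (0.20). The nearest to Cxcr4 were G530011O06Rik (0.12), Fosl2 (0.13) and Stx11 (0.13), and to Ackr3 AI429214 (0.15), Akap1 (0.18) and Rab23 (0.21). A member with a small range finds near neighbours more easily, and the median distance of all genes was 0.53 for Cxcr4 and 1.82 for Plvap. Among the members, Plvap and Robo4 were the closest pair (0.59) and no other pair was under 0.68. None of the 3 nearest genes of any member was another member.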

How the data were processed

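RNA of sorted endothelial and satellite cells was measured on 24 Mouse Gene 2.0 ST arrays in 8 groups of 3. Values in the deposited table are log2 intensities from RMA, per the submitters' processing notes, and its version is not given in the sources used here. RMA corrects background, equalises distributions between arrays and summarises probes, so amounts of RNA per cell are not kept. Of 24479 probe sets, 23281 have 1 symbol in the platform annotation and 1198 none. The probe set with the highest mean stood for a symbol held by several, which left 23279 genes, and 14064 with a value above the array median on at least 3 arrays were tested.

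A mean per group was fitted over all arrays (16 residual degrees of freedom) with limma 3.58.1 in R 4.3.3, with Benjamini-Hochberg adjustment over all genes tested. The call rule was checked on simulated data. Folds are given only where the lower mean lay at least 1 above the array medians. Members and lists were chosen with earlier results of these data known. Named genes were all members, the 3 nearest patterns, up to 4 called genes of each list per comparison with EC day 0, defining markers and ligands. Promoters and motifs came from a RefSeq table. Alternatives covered filters, scaling, the arrays fitted, blocks, weights and each array left out.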

Additional observations from a re-analysis of the deposited data

Results flagged for a closer look

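5 differences between EC and SC in the change from day 0 were called by a test of the difference itself (limma interaction term, adjusted over 14064 genes). In the SC sort of day 2, satellite cell and myoblast genes averaged 5.13, against 7.95 on day 0. Leukocyte markers averaged 10.01 there, against 3.93 on day 0. The part of other cells in the SC changes was not tested. On day 2 the change of Mcam was higher in EC than in SC by 2.61 on the log2 scale (adjusted p = 0.00212), and every EC array of day 2 lay above every EC array of day 0. The change of Ackr3 was higher in EC by 1.85 on day 2 (adjusted p = 0.0174), from -0.01 in EC and -1.85 in SC. The change of Plvap was lower in EC by 2.12 (value -2.12, adjusted p = 0.0424), from 0.76 in EC and 2.88 in SC. The change of Robo4 differed by -2.06 (adjusted p = 0.0294), from -0.22 in EC and 1.84 in SC. Without replicate 2 of SC day 2, Plvap (-1.43, adjusted p = 0.0874) and Robo4 (-1.41, adjusted p = 0.0506) were not called, and their calls were lost under 16 and 9 of 35 alternatives. That of Ackr3 was lost under 3 of 35. On day 4 the change of Mcam was higher in EC by 3.16 (adjusted p = 0.000817), from 1.65 in EC and -1.50 in SC.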

How the results depend on the processing

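With 3 arrays a group, the number of arrays limits precision, and the mean of Esm1 in EC on days 0 and 8 and in SC on every day, of Unc5b in SC on days 0 and 2 and of Plvap and Robo4 in SC on day 0 lay less than 1 above the array medians. The leading numbers of the array names follow the days, so that order and time after injury are confounded. The 7 genes were tested in 15 comparisons. Of the differences of single genes, 1133 values under other settings and 2413 with 1 array left out kept their direction and side of the threshold. Calls were lost in 17 and 60 and gained in 13 and 10. Centring arrays on their median moved the median of all genes by up to 0.162 (EC minus SC on day 0).

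The larger moves in counts of called members are given first. Their cause was not tested, except that fitting only the arrays compared leaves fewer samples for the error. With only the arrays of the groups compared, 2 were higher in EC on day 8, 1 in SC on day 2, 1 in SC on day 8, 1 in EC minus SC on day 2, and in the interaction 1 higher and 0 lower on day 2 and 1 higher on day 8. With array weights, 2 were lower in SC on day 2, 1 lower in SC on day 8, 1 lower in EC minus SC on day 0, and 1 higher and 1 lower in the interaction on day 8. With further quantile normalization 2 were lower in EC minus SC on day 0 and 1 higher in the interaction on day 8. Without the low-value filter, or with arrays centred on the 75th percentile, 1 was lower in the interaction on day 2. Smaller moves came from single genes. In EC minus SC on day 2, limma lost Unc5b without the filter (adjusted p = 0.0688) and on the 75th percentile (0.0725). It also lost Unc5b with quantile normalization (0.0884) and with its trend and robust options (0.0524). With array weights Cxcr4 was called higher in SC on day 2 (1.14, adjusted p = 0.00256), as it was without the minimum difference. Centring on the median added Unc5b in EC minus SC on day 4 (1.04, adjusted p = 0.0371).

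With each array left out, members called higher numbered 1 to 2 in EC on days 2 and 4, 0 to 1 on day 8, 2 to 3 in SC on day 2, 1 to 2 on days 4 and 8, and 4 to 6 in EC minus SC on day 2. They numbered 3 to 4 on day 8. Members called lower numbered 1 to 2 in SC on day 2 and 0 to 1 in EC minus SC on days 0 and 2. In the interaction 1 to 2 were higher and 0 to 2 lower on day 2, 0 to 1 lower on day 4, and 0 to 1 in either direction on day 8.

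15 uncalled differences near 0 changed sign, 57 times. With arrays centred on their median, Ackr3 became 0.012 (EC day 2), -0.054 (EC day 8 minus day 4) and 0.064 (EC minus SC, day 0), Esm1 -0.025 (EC day 8), 0.020 (SC day 8) and -0.045 (interaction, day 8), Cxcr4 0.027 (SC day 8) and -0.016 (interaction, day 2), and Robo4 -0.045 (EC day 8 minus day 4). With array weights, Ackr3 became 0.046 (EC day 2) and -0.022 (EC day 8 minus day 4), Esm1 0.096 (SC day 8) and -0.011 (interaction, day 8), and Cxcr4 0.038 (SC day 8) and -0.39 (interaction, day 2). On the 75th percentile Robo4 became 0.046 (EC day 8) and Cxcr4 -0.058 (EC minus SC, day 4). With further quantile normalization Robo4 became 0.034 (EC day 8) and Cxcr4 -0.13 and -0.027 (EC minus SC, days 4 and 8). With 1 array left out, Ackr3 ranged over -0.080 to 0.11 (EC day 2), -0.10 to 0.077 (EC day 8 minus day 4) and -0.23 to 0.054 (EC minus SC, day 0). Cxcr4 ranged over -0.13 to 0.13 and -0.17 to 0.17 (EC minus SC, days 4 and 8), -0.33 to 0.32 (interaction, day 2) and -0.19 to 0.15 (SC day 8). Esm1 ranged over -0.21 to 0.49 (EC day 8), -0.61 to 0.086 (EC day 8 minus day 4), -0.17 to 0.31 and -0.17 to 0.53 (interaction, days 4 and 8) and -0.17 to 0.14 (SC day 8). Robo4 ranged over -0.072 to 0.044 (EC day 8) and -0.023 to 0.092 (EC day 8 minus day 4), and Unc5b over -0.17 to 0.61 (SC day 2).

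EC and SC groups share replicate numbers. The deviations of same-numbered arrays correlated at -0.0649 to 0.198, over 0.1 in 4 of 12 pairs. In 11 of the 12 pairs the array names shared a number too. Such correlations between different cell types cannot show whether the samples had a shared origin. The titles do not say that a number marks a shared animal, so the numbers were not taken as pairs. With a random replicate block, by title or by array name, no count of called members moved. With a fixed replicate block for EC minus SC, Unc5b on day 2 kept its difference of 1.02 and was no longer called (adjusted p = 0.0742).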

Other observations

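Other tip cell genes were also measured in SC. Of 24 tested, 7 were called higher and 1 lower in SC on day 2, 9 higher and 1 lower on day 4, and 7 higher and 0 lower on day 8. The background was 10.9% higher and 9.67% lower on day 2, 6.53% and 5.47% on day 4, and 4.38% and 2.00% on day 8. On day 2, 7 of the 24 were higher and 6 lower without replicate 2, with a background of 12.5% and 10.7%. On day 2 Plaur was higher by 4.45 on the log2 scale, Apln by 3.99 and Pgf by 2.24, when all 19 leukocyte markers were called higher, and by 4.65, 3.61 and 1.82 without replicate 2. Kdr, lower in EC on day 2 (-1.15), was higher in SC (1.86, and 1.34 without replicate 2), on the arrays where 9 of 15 endothelial core genes were higher. Between the cell types, 14 of the 24 were called higher in EC on day 0, 18 on day 2 (19 without replicate 2 of SC day 2), 16 on day 4 and 15 on day 8. Of all genes tested, 9.43%, 6.31% (7.40% without replicate 2), 7.73% and 6.88% were called higher in EC on these days. On day 0, 1 of the 24 was lower, with a background of 7.59%. What part other cells in the sorts had in these values was not tested.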
